A study of Homo sapiens with 9 samples.

Results

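The segment of band 9p21 described here runs from chr9:21000001-22500000 on GRCh37 (hg19), and is reported to be lost in K562, a chronic myelogenous leukemia cell line. Every listed row that lay within it on either strand was taken, where a row is 1 pair of genomic ends on 1 strand with its reads. This gave 1612 of 3688019 rows, with 10156 of 47670688 reads. Small RNA of untreated K562 cells, as 3 batches of the 1 line, had been cloned with selection of 20–40 nt inserts and sequenced, and the batches are pooled in the values, so no value has a replicate error. The 6 samples of HEK293 cells that received vectors have no values used here. A segment of the same length on the same arm, chr9:33000001-34500000, served as the retained comparison, with 2835 rows and 6726 reads. No DNA was measured, so neither the loss of the one nor the presence of the other was tested.

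Band 9p21 carries the cluster of type I interferon genes, which encode secreted antiviral cytokines, beside MTAP, CDKN2A and CDKN2B. CDKN2A encodes p16, an inhibitor of the cyclin D kinases, and in another reading frame ARF, which stabilizes p53. CDKN2B encodes p15, a relative of p16, and MTAP encodes the methylthioadenosine phosphorylase of the methionine salvage pathway. The band also holds MIR31, the gene of the microRNA miR-31, inside the long noncoding RNA gene MIR31HG. Loss of the band is common in leukemia and in solid tumors. A row listed in sequence that a cell line has lost would have to come from somewhere else in the genome or from other cells, which makes such a segment a floor for misplaced rows.

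The sequences below are shown because they mark the kinds of rows found there. Those of rows are the bases of GRCh37 between the listed ends, as read sequences were not used. The first is the mature miR-31 of RefSeq, written as RNA, and the next 3 are rows listed at its locus, chr9:21512155-21512177, chr9:21512156-21512177 and chr9:21512158-21512177 on the minus strand, all with the seed (bases 2 to 8) in capitals.

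hsa-miR-31-5p: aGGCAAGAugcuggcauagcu

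MIR31 row of 23 nt: aGGCAAGAtgctggcatagctgt

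MIR31 row of 22 nt: aGGCAAGAtgctggcatagctg

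MIR31 row of 20 nt: aGGCAAGAtgctggcatagc

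The next is the row at chr9:21510429-21510445 on the plus strand, whose capital marks the base past the 16 nt that make the most abundant row of the segment. It is followed by the most abundant row with 1 exact match in the genome and more than 17 nt, at chr9:21357367-21357385 on the minus strand.

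Row of 17 nt: aatggataaggcactgT

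Row of 19 nt: gaagaataaaagctgtact

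The last 2 are the only rows of 25 nt or longer, at chr9:21695313-21695337 on the plus strand, in the processed pseudogene KHSRPP1, and at chr9:22434768-22434796 on the minus strand, between genes.

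Row of 25 nt: atcagttctcaacttggacccatcc

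Row of 29 nt: agtgaagccgcagacctttgcggtgagtg

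Rows of 9p21 were as dense as in the retained segment when short and became rarer than there with length. Rows of 10–14 nt numbered 732 in 9p21 and 705 in the retained segment, which is 488 and 470 per Mb, a ratio of 1.04 (exact 95% interval of the counts, 0.935 to 1.15). The ratio was 0.833 (0.739 to 0.939) for 15–17 nt and 0.519 (0.443 to 0.606) for 18–19 nt. It was 0.203 (0.166 to 0.246) for 20–24 nt, with 126 rows against 620. At 25–42 nt, 9p21 held 2 rows and the retained segment 428. Over all rows of 20 nt or longer, the size that had been selected, 9p21 held 128 rows (85.3 per Mb) and the retained segment 1048 (699 per Mb), a ratio of 0.122 (0.101 to 0.147). As reads carry no molecular identifiers, all intervals cover counting error only, and the 2 counts of a ratio are 1 pooled measurement each.

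**Figure D1:**
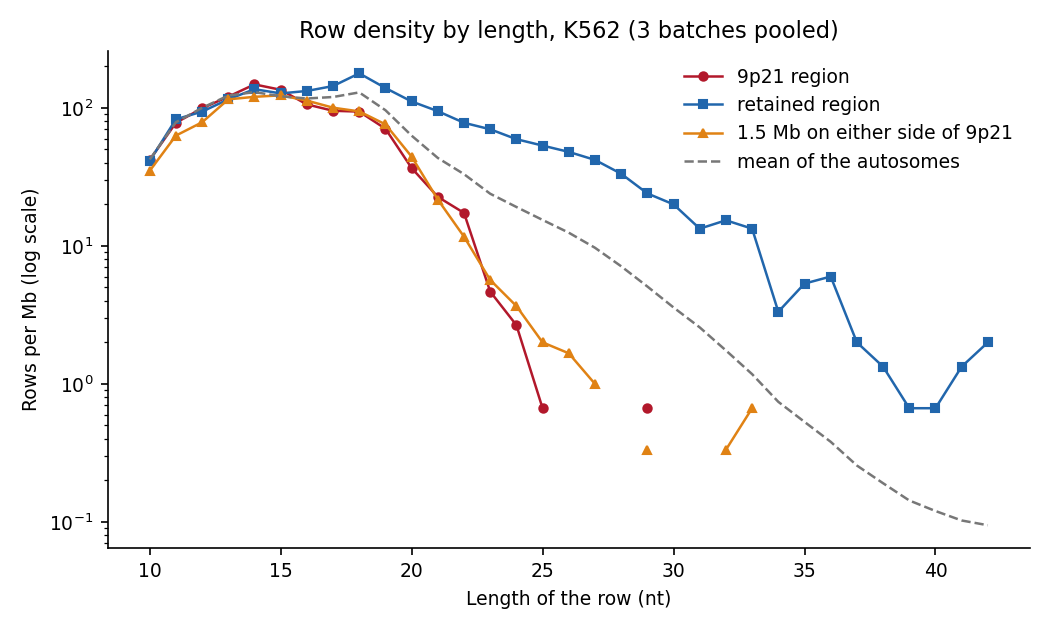
Rows per Mb (log scale) against the length of the row in nt, for 9p21, the retained segment, the pooled 1.5 Mb on either side of 9p21 and the mean of the autosomes; lengths with 0 rows are not drawn. The lines run close to each other at 10–14 nt, and at 20–24 nt 9p21 stands at 84.0 rows per Mb against 413 in the retained segment.

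The retained segment was not a typical stretch of the genome, so 9p21 was also set beside all other autosomal windows of 1.5 Mb, 1773 in number. For 10–14 nt, 66% of these windows had as many rows per Mb as 9p21 or fewer. For 20 nt or longer the share was 9.98%, and for 25–42 nt it was 1.02%, or 18 windows. The median window had 172 rows per Mb of 20 nt or longer and 33.7 of 25–42 nt, against 85.3 and 1.33 in 9p21. The retained segment was denser in rows of 20 nt or longer than 97.1% of windows. Windows with no protein-coding gene, 76 in number, had a median of 99.7 rows of 20 nt or longer per Mb, close to the value of 9p21, which has 22 such genes, and a median of 6.33 rows of 25–42 nt.

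The sequence next to 9p21 had the same density of rows of 20 nt or longer. The 1.5 Mb on the side of the telomere held 154 such rows and the 1.5 Mb on the side of the centromere 125, against 128 in 9p21, a ratio to both together of 0.918 (0.738 to 1.14). The rows of 25 nt or longer numbered 17 on the side of the telomere, 1 on the side of the centromere and 2 in 9p21, a ratio of 0.222 (0.025 to 0.928). Rows of 10–14 nt were 1.18 times (1.08 to 1.30) as dense in 9p21 as beside it. No source used here says how far the loss extends in these cells.

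**Figure D2:**
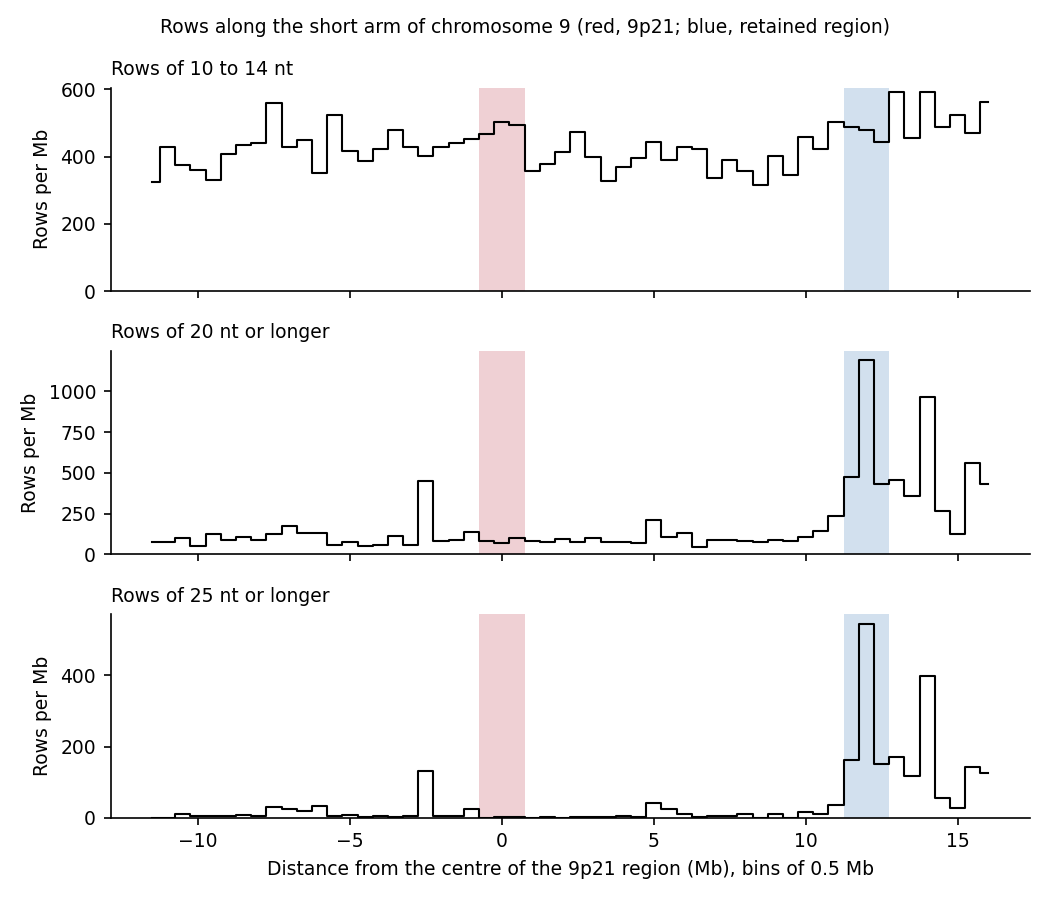
Rows per Mb in bins of 0.5 Mb against the distance in Mb from the centre of 9p21, for rows of 10 to 14 nt, 20 nt or longer and 25 nt or longer; 9p21 is shaded red and the retained segment blue. The 2 rows of 25 nt or longer in 9p21 lie within a wider stretch of low values, and short rows run at a similar level along the stretch drawn.

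Within 9p21 the rows were spread over the whole segment. Each of its 15 bins of 100 kb held 30 to 63 rows of 10–14 nt (median 49) and 2 to 14 rows of 20 nt or longer (median 8). The bins of the retained segment held 36 to 71 short rows and 7 to 409 rows of 20 nt or longer. The rows of 9p21 divided into 855 on the plus and 757 on the minus strand, with lengths of 10 to 29 nt and a median of 15 nt. The median in the retained segment was 18 nt and the longest row 42 nt. Between genes lay 55.9% of all rows of 9p21 and 55.5% of those of 20 nt or longer. Rows of 20 nt or longer had a median GC content of 30.0%, below the 38% of the segment, whereas in the retained segment the values were 46.2% and 44.3%.

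Reads gave a different order from rows, because a few rows of 9p21 were abundant. Reads are given as recovered reads, the deposited count divided by the number of near neighbours by which it had been multiplied. The 9p21 segment had 6771 reads per Mb and the retained one 4484, a ratio of 1.51 (1.46 to 1.56), and 81% of the autosomal windows had as many as 9p21 or fewer. The 10 rows with the most reads held 59.1% of all reads of 9p21, against 14.5% in the retained segment. Rows on 1 read numbered 1129 of 1612, or 70.0% (67.7 to 72.3), beside 71.9% in the retained segment and 73.6% of all rows. Of the 1612 rows, 75 had 10 reads or more and 7 had 100 or more, against 93 and 3 of 2835 rows in the retained segment.

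The most abundant row, of 16 nt at chr9:21510429-21510444 on the plus strand, had 4198 reads and lay antisense to an intron of MIR31HG. Its deposited RPKM of 82385 rests on the deposited count of 71366, multiplied by 17 near neighbours, and so does not match the 4198 reads. Its sequence had 5 exact matches in the genome, of which 1 other was listed with the same ends, at 4117 reads. With 20 rows that overlapped it on the same strand, the shortest of 12 nt and the longest of 19 nt, it held 5339 reads or 52.6% of those of 9p21. None of the 21 rows was of 20 nt or longer. The row of 17 nt shown above, with 344 reads, had no other exact match. It lay within 1 mismatch of a row elsewhere with 1000 reads or more, extended by 3 nt at each end. Without these 21 rows the ratio of reads to the retained segment was 0.716 (0.690 to 0.743), so that it passed from above to below 1.

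The other rows with the most reads were also shorter than 20 nt. A row of 15 nt within the same group had 362 reads and 12 exact matches. The row of 19 nt shown above, between genes, had 328 reads and 1 exact match, and the row of 20 nt with the same 5′ end had 23 reads. With up to 1 mismatch the row of 19 nt had 7 matches, itself included, and at most 28 reads were listed at another of them. A row of 12 nt at chr9:21016345-21016356 on the minus strand, in an intron of HACD4, had 178 reads and 1273 exact matches. In the retained segment the 3 most abundant rows had 228, 130 and 118 reads, each of 20 or 21 nt and with 1 exact match. With up to 1 mismatch they had 5, 1 and 2 matches.

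Rows of 20 nt or longer had few reads each in both segments. In the retained segment the 1048 rows held 2943 reads, and 65.6% of the rows rested on 1 read. The 128 rows of 9p21 held 377 reads, 54.7% of the rows rested on 1 read, and the highest value was 26. That value was found at chr9:22324746-22324766 and chr9:22324746-22324767 on the plus strand, with 35 and 26 exact matches in the genome. Next came the row of 20 nt with 23 reads, and rows at chr9:22228772-22228791 and chr9:22102101-22102120 on the minus strand with 18 and 15 reads, each with 1 exact match and the latter antisense to an intron of CDKN2B-AS1. The 23-nt row of MIR31 had 12 reads. A sequence listed at 2 places of 9p21, chr9:21169098-21169118 and chr9:21219649-21219669, had 11 reads at each. A row at chr9:22041723-22041743 had 9 reads and one at chr9:21094294-21094313 had 7, both on the minus strand and with 1 exact match, and 2 more rows also had 7, at chr9:21366415-21366435 with 15 exact matches and at chr9:21693496-21693516 with 1.

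The reference sequence at each row was searched in GRCh37 on both strands. The study states that reads mapping to 1 place were kept, yet 731 of 732 rows of 10–14 nt in 9p21 had another exact match, and so had 702 of 705 in the retained segment. For 15–17 nt the numbers were 406 of 505 (80.4%, 76.7 to 83.8) and 447 of 606 (73.8%). From 18 nt on they fell in 9p21, to 68 of 247 (27.5%, 22.1 to 33.6) for 18–19 nt, and for 20 nt or longer to 35 of 128 (27.3%, 19.8 to 35.9), below the 46.9% of the retained segment. With 1 mismatch allowed, 93 of the 128 rows (72.7%, 64.1 to 80.2) had another match. In the retained segment 636 of 1048 rows (60.7%, 57.7 to 63.7) did, so the order of the segments was the reverse.

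These shares were set beside stretches of the reference taken every 1 kb. Of 1500 such stretches of 20 nt in 9p21, 27.4% had another exact match and 73.9% another match with up to 1 mismatch, against 14.5% and 76.4% of the 55 rows of 20 nt. At 22 nt the stretches gave 22% and 43.3%, and the 26 rows 34.6% and 65.4%. At 21 nt the values were 24.3% and 55.7% of stretches and 32.4% and 76.5% of 34 rows. The exact intervals for up to 1 mismatch were 58.8% to 89.3% at 21 nt and 44.3% to 82.8% at 22 nt, and rows that are shifted versions of 1 place are not independent. In the retained segment, 41.5% of the stretches of 20 nt had another exact match and 77.4% a match with up to 1 mismatch. The 167 rows of 20 nt there gave 38.9% and 70.7%.

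Where a row had 2 to 100 exact matches, reads were often listed at a second copy in the same number. Of 786 such rows of 9p21, 554 (70.5%) had another copy listed with the same ends, and the ratio of reads here to the median at those copies was 1 at the median and at both quartiles. Only copies with listed reads entered this ratio, and 70.0% of all rows of 9p21 rest on 1 read, so a ratio of 1 was partly set in advance. The listed reads do not tell at which copy such a sequence arose.

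Few rows of 9p21 resembled an abundant row elsewhere. Of 1102 rows of 14 nt or longer, 34 lay within 1 mismatch of a row with 1000 reads or more elsewhere, extended by 3 nt at each end, and they held 5405 of 8883 reads. Of these, 8 rows with 5242 reads belong to the group around the most abundant row, whose other listed copy is itself such a row, and the other 26 rows held 163 reads. The numbers in the retained segment were 24 of 2335 rows and 78 of 5687 reads. Among rows of 20 nt or longer in 9p21 there was 1, with 2 reads.

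The segments differed in how many of their long rows matched the mitochondrial genome. In the retained segment 363 of 1048 rows of 20 nt or longer (34.6%) matched the mitochondrial genome with up to 1 mismatch, with 959 reads, and at 25–42 nt 191 of 428 did. In 9p21 it was 0 of 128 rows, which as a count allows a share of up to 2.34%. Of rows of 14 nt or longer, 35 of 1102 matched in 9p21, with 152 reads, and 550 of 2335 in the retained segment, with 1290 reads. The reference at each row was compared, so a match also depends on what copies of mitochondrial sequence a segment holds, which was not counted. No row is listed on the mitochondrial chromosome itself. Without such rows the ratio of 9p21 to the retained segment at 20 nt or longer was 0.187 (0.153 to 0.226), with 128 rows against 685, and at 25–42 nt 2 rows stood against 237. In intergenic sequence the numbers were then 71 rows in 0.918 Mb of 9p21 and 96 rows in 0.375 Mb of the retained segment.

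Rows inside genes of 9p21 were on the sense strand less often than in the retained segment when all lengths were counted. Of 648 rows in genes on 1 strand, 55.2% (51.3 to 59.1) were sense, against 67.0% (64.7 to 69.2) in the retained segment and 61.1% over the autosomes, and 9p21 has a larger part of short rows. At 10–14 nt the share in 9p21 was 54.8% of 301 rows (49 to 60.5), with 51.2% in the retained segment and 53.1% over the autosomes inside that interval. At 15–17 nt the shares were 52.8% of 197 rows (45.6 to 59.9), 65.8% and 57.1%. At 18–19 nt they were 52.6% of 95 rows (42.1 to 63.0), 71.4% and 62.8%. In both classes the share of the autosomes, given last, lay inside the interval of 9p21, and that of the retained segment lay above it. At 20 nt or longer the share in 9p21 was 70.9% of 55 rows (57.1 to 82.4), and the retained segment and the autosomes had 79.1% and 78.7%, both inside that interval. In exons 14 of 17 rows of 20 nt or longer were sense, and 5 of these 14 lay on MIR31 and 4 on the pseudogene KHSRPP1.

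Of the 22 protein-coding genes of 9p21, 21 had no sense exonic row of 20 nt or longer. In the retained segment 5 of 23 had none, and over all autosomal protein-coding genes the share with none was 35.5%. The exons of the 22 genes, 59.3 kb, held 2 such rows (0.0337 per kb), those of the retained segment 1.82 per kb and those of all autosomal coding genes 1.49 per kb. Genes that cross a border of their segment were counted whole. Over any length, exons of the 22 genes held 31 sense and 32 antisense rows, whereas those of the retained segment held 445 and 77.

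The 16 interferon genes, IFNB1, IFNW1, IFNE, IFNA1, IFNA2, IFNA4, IFNA5, IFNA6, IFNA7, IFNA8, IFNA10, IFNA13, IFNA14, IFNA16, IFNA17 and IFNA21, had no sense exonic row of 20 nt or longer, nor one in their gene bodies. IFNK, the interferon gene of keratinocytes, lies outside the segment and also had none. With 16.4 kb of exons in all, a count of 0 allows up to 0.182 reads per kb, and the median autosomal coding gene had 0.617. The interferon genes are short, from 0.686 to 1.54 kb. Of 2293 autosomal coding genes no longer than the longest of them, 70.0% had no such row either, and the exact interval of 16 of 16 begins at 79.4%, though neighbouring genes of 1 family are not independent. Rows of any length were found in 4 of the 16, IFNA5, IFNA7, IFNA17 and IFNA8, 5 rows with 7 reads in all, beside 14 antisense rows. The IFNA genes are near copies of each other, so a short row in one of them cannot be placed with certainty.

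CDKN2A and CDKN2B, the cell cycle inhibitors, had no sense exonic row of 20 nt or longer either. In CDKN2A 8 shorter rows held 13 reads, and in CDKN2B 3 rows held 3 reads. Each had 1 row of 20 nt or longer with 1 read in its introns. The other 13 genes of the list of INK4 inhibitors and regulators of the G1 phase all had such exonic reads, from 1 in CDKN2D to 194 in CDK6 (median 21). Over all autosomal coding genes 64.5% had such a row, so that 0 of 2 says little about the pair. CDKN2B-AS1, the antisense long noncoding RNA gene of the locus, had 1 exonic row of 20 nt or longer with 1 read, and 8 rows of that size with 10 reads in its whole body.

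MTAP was the only coding gene of 9p21 with sense exonic rows of 20 nt or longer. These were 2 overlapping rows of 1 read each, at chr9:21856158-21856179 and chr9:21856159-21856179, each with 1 exact match. The longer one had no match at 1 mismatch and 8 at 2 mismatches, and the shorter one had 1 and 43. Per kb of exon MTAP had 0.138 reads. The other 11 genes of methionine salvage and polyamine synthesis had from 3 reads in APIP to 262 in ODC1 (median 17), with a median of 7.04 reads per kb. The remaining coding genes, HACD4, of fatty acid elongation, KLHL9, an adaptor of a ubiquitin ligase, and DMRTA1, a DM domain factor, had none in exons, and 2 rows of 20 nt or longer lay in introns of HACD4, which extends past the border of the segment. In the retained segment the genes with the most exonic reads were UBAP2 (265 reads), whose exons in the annotation cover the small nucleolar RNA gene SNORD121B and which had 20 reads outside it, NOL6 (86), APTX (32), and DNAJA1 and DCAF12 (27 each). APTX extends past the border of the retained segment.

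MIR31 stood apart from the other genes of 9p21. Its 5 rows, of 20 to 23 nt, held 23 reads, 12 in the row of 23 nt, 6 and 1 in those of 22 nt, 3 in the row of 20 nt and 1 in the row of 21 nt. Of these, 4 rows with 22 reads began at the first base of mature miR-31-5p, which lies at chr9:21512157-21512177 on the minus strand, and all 5 ended within 2 nt of it. The ends of the 23-nt row take in the 2 reference bases past the RefSeq mature sequence. None of the 5 sequences had another match in GRCh37 with up to 1 mismatch, where insertions and deletions were not searched. They share this with other rows of the segment, 35 rows of 20 nt or longer in all. The deposited RPKM of these rows was 3.36 to 48.2, from counts still multiplied by the number of near neighbours. Among 3049 miRNA hairpins of the annotation, 1261 had a sense row of any length, with a median of 15 reads. As many reads as MIR31 or more were found in 557. Rows shorter than 20 nt count in these numbers, whereas MIR31 had none. Of all autosomal miRNA genes, 58.8% had no sense row. MIR31 was thus listed at a level close to that of the median detected hairpin, in a segment reported as lost, and the source of these reads was not tested.

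MIR31HG, which hosts MIR31, had 19 rows of 20 nt or longer with 46 reads on its strand, and 14 rows with 23 reads outside MIR31. Only 2 of them, with 2 reads, were exonic. The second annotated miRNA gene, AL359922.1, had 1 row with 1 read and none of 20 nt or longer. SNORD39, a box C/D small nucleolar RNA gene of the segment, had no row.

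Over the whole of 9p21, 35 rows of 20 nt or longer with 90 reads had no other match with up to 1 mismatch, in 20 groups of overlapping rows. MIR31 was the largest with 23 reads. The next, at chr9:21510354-21510376 on the minus strand in MIR31HG, had 5 rows and 8 reads, and the 19 groups outside MIR31 had a median of 2 reads.

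Sense exonic rows of 20 nt or longer were also found on a pseudogene. KHSRPP1, a processed pseudogene of the RNA-binding protein gene KHSRP, had 4, with 7 reads, among them the row of 25 nt shown above. Each of the 4 had an exact copy in an exon of KHSRP on chromosome 19, where a row with ends within 3 nt in sum was also listed, with 1 or 2 reads. For the row of 25 nt the copy lies at chr19:6421302-6421326 on the minus strand, with 1 read at each place. The 10 unprocessed pseudogenes, all of the interferon family, had 6 shorter rows and none of 20 nt or longer. The row of 29 nt had 4 exact matches, none of the other 3 listed, and 181 matches with up to 1 mismatch.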

How the data were processed

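The authors aligned single-end reads of 50 nt to GRCh37 with Bowtie2 2.2.9, kept reads stated to map uniquely, and deposited for each alignment a read count and an RPKM that pool 3 batches of K562. The deposited count was divided by the number of rows of its strand whose ends differ by 3 nt or less in sum, itself included, which left no remainder in any row. Depth is 47670688 recovered reads, against 54140681 in the denominator of the RPKM. Rows were assigned to GENCODE release 44 genes on GRCh37 by their central base, and positions with genes on both strands were left out of strand shares. Densities are per Mb of called sequence. Autosomal windows needed 80% called bases. Intervals are exact (Clopper-Pearson, 95%, for a ratio conditional on the sum of its counts), and a count of 0 is read as up to 3. With pooled batches no test between samples was run. Copies were counted by a scan of GRCh37 chromosomes, scaffolds and the mitochondrial genome. The mature miR-31 is from RefSeq (GRCh38.p14) and was placed by matching its sequence. Named were every protein-coding and miRNA gene of 9p21, CDKN2B-AS1 and MIR31HG, the 5 retained genes with the most exonic reads, and the rows with the most reads; pseudogenes, SNORD39 and rows of 25 nt or longer were named after their values were seen. The segment, lists and alternatives were chosen with earlier results of these data known. Python 3.11.15 was used with pysam 0.24.0, pandas 2.3.3, scipy 1.17.1, matplotlib 3.10.9, numba 0.67.0 and numpy 2.4.6. The steps were tested on simulated data, where 2992 of 2992 neighbour numbers and 200 of 200 copy numbers were recovered. A result on 1 pseudogene is not reported here.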

Additional observations from a re-analysis of the deposited data

How the results depend on the processing

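The ratio of rows of 20 nt or longer to the retained segment, 0.122, was below 1 under all 11 alternatives. Not all of these use the retained segment. Against the 1.5 Mb on either side it was 0.918, with an interval of 0.738 to 1.14 that includes 1. It was 0.497 against the median autosomal window. Against windows with no protein-coding gene, chosen after seeing the data, it was 0.856. Neither value has an interval. Against the retained segment it was 0.161 for rows of at least 2 reads and 0.217 for clusters of rows. It was 0.167 for rows with 1 exact match, 0.246 at 18 nt or longer and 0.0116 at 24 nt or longer. Without mitochondrial sequences, also chosen after seeing the data, it was 0.187. In intergenic sequence it was 0.0631, with 459 retained rows counted, of which 96 remain without mitochondrial sequences. The ratio for 10–14 nt, 1.04, was 1.22 for rows of at least 2 reads, 1.18 against the neighbouring sequence, 0.333 for rows with 1 exact match (1 row against 3) and 1.28 against windows with no protein-coding gene. The ratio of reads, 1.51, was below 1 in intergenic sequence (0.450), for rows with 1 exact match (0.662), without the most abundant row of each segment (0.917) and without the group around it (0.716), and was 1.93 for rows of at least 2 reads, 2.67 against the neighbouring sequence, 1.69 against the median window, 2.89 with deposited reads and 1.84 without mitochondrial sequences. The share on 1 read, 70.0%, was 54.7% for rows of 20 nt or longer and 52.2% with deposited reads. The sense share, 55.2%, was 70.9% for rows of 20 nt or longer and 60.2% in exons. The share with another match, 27.3%, was 72.7% with 1 mismatch. Of the 22 coding genes, 13 rather than 21 lacked a sense exonic row when any length counted. Other alternatives stayed within the interval or within 1.5 times the count. No paired analysis was possible because the 3 batches are pooled in the values. Depth limits what 0 means for short genes.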
